A study of Mus musculus with 8 samples.

Results

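The postsynaptic density scaffold genes Shank1, Shank2, Shank3, Dlg1, Dlg2, Dlg3, Dlg4, Dlgap1 and Homer1 were compared between ketamine-anesthetized and Control mice. The rows were chosen by Ensembl identifier, matched to these symbols in the GENCODE M21 annotation of GRCm38. All 9 were found among the 20802 genes listed, and all 9 were among the 18865 genes tested, which had a mean of at least 10 normalized counts over the 8 mice. Hippocampal RNA came from male C57BL/6 mice, 4 per group. The Anesthesia mice received ketamine intraperitoneally at 35 mg per kg on 5 consecutive days starting at PND16, and tissue was taken 1 week after the last injection. The Control group is titled untreated in the sample labels, while the deposited protocol describes saline injections. Both groups were weaned at PND21 and were aged PND28 by the labels.

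The postsynaptic density is the protein meshwork under the membrane of excitatory synapses, and it holds glutamate receptors opposite the sites of transmitter release. Its scaffolds are stacked in layers. The Dlg genes encode membrane-associated guanylate kinases (MAGUKs), which bind receptors and adhesion molecules at the membrane, the Dlgap proteins bind the MAGUKs from below, and the Shank proteins bind the Dlgap proteins and, through Homer, metabotropic glutamate receptors and calcium stores. In the hippocampus these proteins set the size and receptor content of dendritic spines, and ketamine blocks the NMDA receptors that the MAGUKs anchor.

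Each value below is a normalized count, that is a read count per gene estimated by the authors and divided by a library size factor. Their totals were between 18702634 and 19231119 per mouse, and the spacing of the lowest values places the sequencing at approximately 15400000 to 22100000 reads per mouse on the listed genes. In whole tissue, fewer cells of a type and less RNA per cell cannot be told apart. All 12 hippocampal principal neuron markers were detected, led by Zbtb20 and Fibcd1. The choroid plexus list, led by Ttr and Enpp2, summed to 4616 to 87390 normalized counts in the Anesthesia mice and 4389 to 104305 in the Control mice. It was low in Anesthesia 2, 3 and 4 and in Control 1, and its part in the results was tested only with its level as a covariate.

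The 9 genes fell into 2 tiers of abundance. Divided by the length of the longest coding transcript, Dlgap1 was highest, with 1203 ± 104 normalized counts per kb (SD over all 8 mice). Dlg2 followed with 993 ± 64.4 and Homer1 with 868 ± 48.6 on the same scale, and each of these was higher than the next gene in 8 of 8 mice. Dlg3 stood at 702 ± 50.8, Dlg4 at 527 ± 61.1 and Dlg1 at 462 ± 68.7 normalized counts per kb. The Shank genes were lowest, with 144 ± 34.6 for Shank2, 135 ± 40.0 for Shank1 and 126 ± 25.3 for Shank3. Ranges over the mice overlapped between Dlg2 and Homer1 and between Dlg4 and Dlg1. The 3 Shank genes were not separated, since Shank2 exceeded Shank1 in 5 of 8 mice and Shank1 exceeded Shank3 in 4 of 8. This order depended on the length used. With the median length of the coding transcripts, Dlg4 ranked 1, Dlgap1 ranked 2 and Dlg3 ranked 6, while the Shank genes still ranked 7 to 9. For Dlg4 that median was 931 bases over 17 coding transcripts, against 6326 for the longest. Its rank of 1 thus rests on short annotated transcripts.

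**Figure D1:**
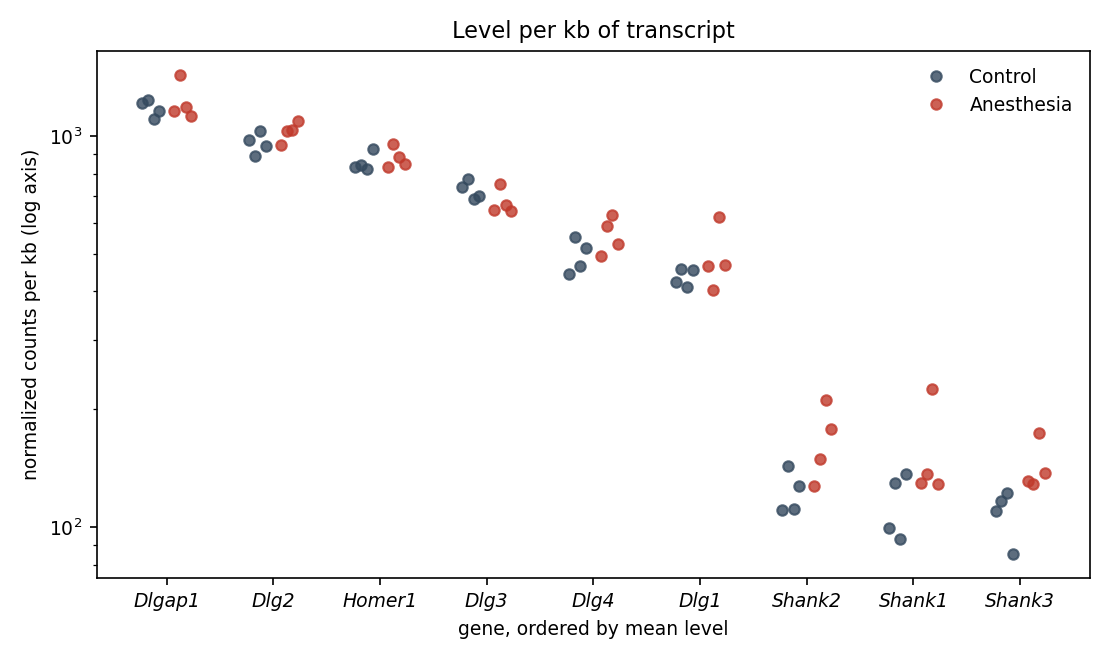
Normalized counts per kb of the longest coding transcript (log axis) of each gene, with a point for each of the 4 Control and 4 Anesthesia mice. The Shank genes lie below the others, with means of 126 to 144 against 462 to 1203 for the other 6 genes.

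In the limma comparison of the groups, 0 of the 9 genes had an adjusted p under 0.05, as did 0 (0%) of all 18865 genes tested. The authors, who used DESeq2 on these mice, reported genes past that threshold, most of them higher after ketamine. Adjusted p-values of the 9 were between 0.620 and 0.875. By sign alone, 8 of the 9 were higher and 1 was lower in the Anesthesia group. Their median log2 fold change was 0.15, while 49.2% of all genes tested were higher and their median was -0.0036. At an unadjusted p under 0.05 there were 2 of the 9, Shank2 and Shank3, both higher, against 4.75% of all genes tested called higher and 3.27% called lower. The groups did not overlap for 1 of the 9, Shank3, against 2.81% of all genes tested that lay wholly higher and 2.23% that lay wholly lower. Once libraries were corrected for GC content and transcript length, 607 genes were higher and 598 lower at that unadjusted p, instead of 897 and 616.

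**Figure D2:**
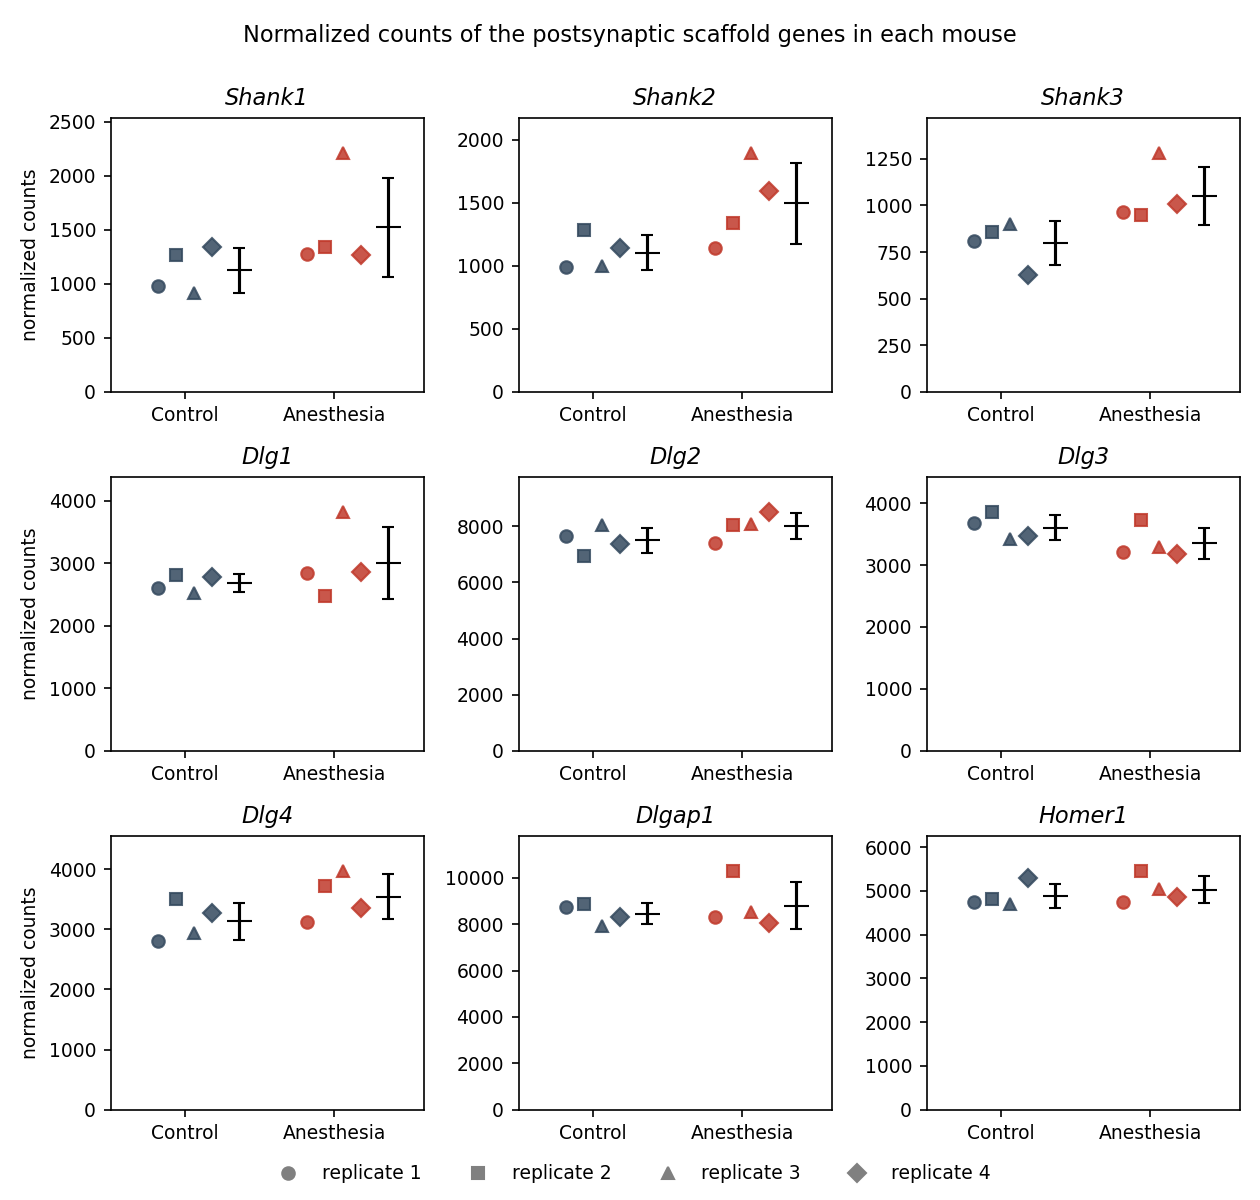
Normalized counts of each scaffold gene (linear axes from 0), with a symbol per mouse by replicate number and, beside each group, the mean with bars of 1 SD over 4 mice. Shank3 is the only panel in which every Anesthesia mouse lies above every Control mouse, and Anesthesia 3 stands apart in Shank1 at 2209.

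The Shank genes encode the large scaffolds of the deep layer of the density, which link the Dlgap proteins to Homer and to the actin cytoskeleton. All 3 were higher in the Anesthesia group by a similar ratio, 1.33-fold for Shank1, 1.34-fold for Shank2 and 1.32-fold for Shank3. None of these differences passed the adjusted threshold of 0.05 in limma.

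Shank3, whose loss in people underlies Phelan-McDermid syndrome, had the smallest p of the 9. Its gene lies at chr15:89499623-89560261 on the plus strand of GRCm38 (ENSMUSG00000022623). Normalized counts were 965, 950, 1281 and 1009 in Anesthesia 1 to 4 and 808, 859, 898 and 628 in Control 1 to 4. The lowest Anesthesia mouse thus stood above the highest Control mouse. The means were 1051 ± 155 and 798 ± 119 (SD, n = 4 in each group). The log2 fold change was 0.40 with a standard error of 0.13 and a 95% interval of 0.12 to 0.68. Its unadjusted p was 0.0101, which ranked 299 among the genes tested, and its adjusted p in limma was 0.620. After correction for GC content and length the log2 fold change was 0.20 with a standard error of 0.12, and the groups overlapped. A noncoding gene on the opposite strand, with a mean of 99.4 normalized counts, shares 271 exonic bases with Shank3, and the strand setting of the quantification is not given in the sources used here.

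The promoter sequence of Shank3 is shown because its transcript and the bases before its start are both rich in G and C. The window holds the 250 bases before the start in RefSeq, at chr15:89499358-89499607 on the plus strand of GRCm38.p6, and capitals mark GGGCGG, the core of a GC box, on either strand.
Shank3: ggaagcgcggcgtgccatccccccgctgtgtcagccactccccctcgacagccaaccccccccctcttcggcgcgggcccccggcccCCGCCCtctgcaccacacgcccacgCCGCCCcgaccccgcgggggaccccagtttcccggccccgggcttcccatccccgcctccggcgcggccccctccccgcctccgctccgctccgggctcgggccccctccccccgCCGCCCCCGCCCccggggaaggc
GC content of this window was 82.4%, which was above that of 99.5% of the 32851 RefSeq windows of this length. The motif occurred 4 times, all on the minus strand, while 8.47% of all windows held it 3 or more times and 32.7% held it at least once. A match describes these letters and not a site in use.

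Shank1 (ENSMUSG00000038738, chr7:44310253-44360572, plus strand), a scaffold of large dendritic spines, had a single high mouse. Normalized counts were 1274, 1339, 2209 and 1265 in Anesthesia 1 to 4 and 976, 1270, 916 and 1339 in Control 1 to 4. Anesthesia 3 was far above the rest, and the other 3 Anesthesia mice lay within the range of the Control mice. The means were 1522 ± 460 and 1125 ± 210. Expressed as a log2 fold change, the difference was 0.41 with a standard error of 0.19 and an adjusted p of 0.622 in limma. Without Anesthesia 3 the log2 fold change was 0.22, and after correction for GC content and length it was 0.18.

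Shank2 (ENSMUSG00000037541, chr7:144001928-144424494, plus strand) encodes a scaffold whose mutation in people is associated with autism. Normalized counts were 1144, 1342, 1892 and 1596 in Anesthesia 1 to 4 and 992, 1283, 998 and 1141 in Control 1 to 4. The lowest Anesthesia mouse lay below the highest Control mouse, while Anesthesia 2, 3 and 4 lay above all Control mice. The means were 1494 ± 324 and 1104 ± 138. The log2 fold change was 0.42 with a standard error of 0.15 and a 95% interval of 0.098 to 0.74, and its unadjusted p was 0.0154. Its adjusted p in limma was 0.620. The log2 fold change after correction for GC content and length was 0.26 with a standard error of 0.12 and an unadjusted p of 0.0458.

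Summed over the 3 genes, the Shank family had 3383, 3631, 5382 and 3869 normalized counts in Anesthesia 1 to 4 and 2776, 3412, 2813 and 3108 in Control 1 to 4. The sums overlapped through Anesthesia 1 and Control 2. The shares of the family were close between groups when levels were taken per kb. Shank1 made up 33.1% ± 3.22 of the family in the Anesthesia mice and 33.0% ± 4.49 in the Control mice. Shank2 made up 35.9% ± 3.10 and 35.4% ± 1.34, and Shank3 made up 31.1% ± 2.14 and 31.5% ± 5.61. For each gene the difference in share was smaller than the SD of either group.

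**Figure D3:**
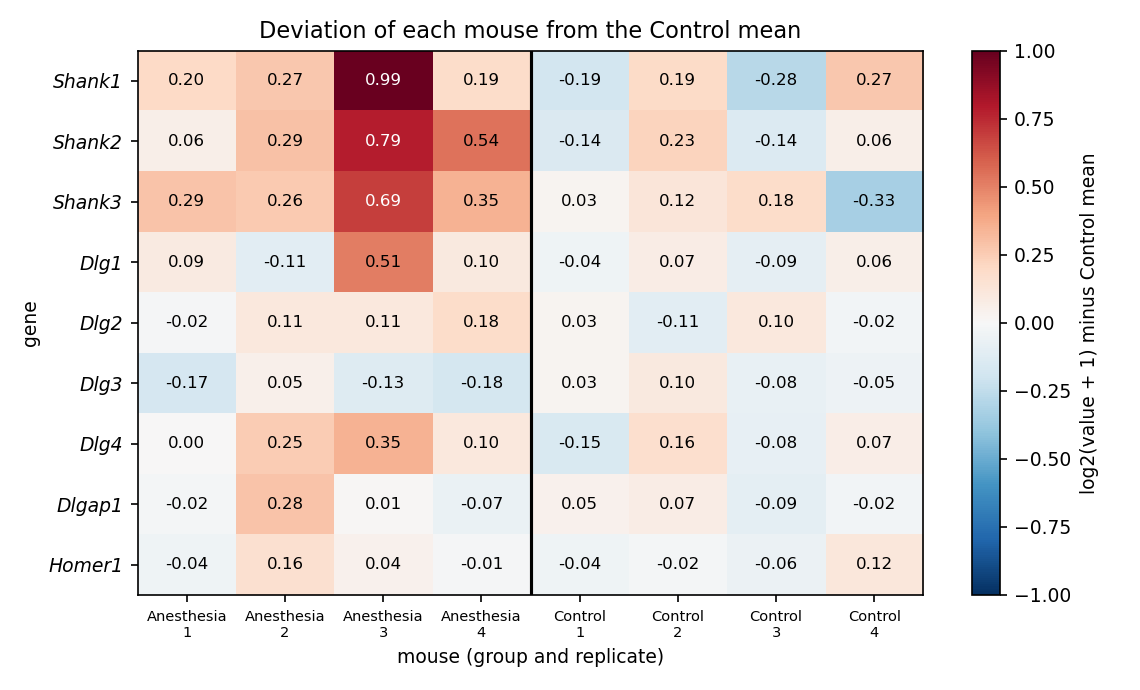
Deviation of each mouse from the Control mean, in log2(normalized count + 1), for the 9 genes in rows and the 8 mice in columns. Anesthesia 3 has the highest value of Shank1, Shank2, Shank3, Dlg1 and Dlg4, with 0.99 for Shank1.

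The Dlg genes encode the MAGUKs of the layer next to the membrane. Dlg1, Dlg2 and Dlg4 were higher and Dlg3 was lower in the Anesthesia group, each with groups that overlapped. None passed the adjusted threshold, and the sizes were smaller than those of the Shank genes.

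Dlg4 (ENSMUSG00000020886, chr11:70016942-70047522, plus strand) encodes PSD-95, the main MAGUK of mature excitatory synapses. Normalized counts were 3120, 3716, 3963 and 3349 in Anesthesia 1 to 4 and 2809, 3497, 2945 and 3273 in Control 1 to 4. Anesthesia 2 and 3 were above all Control mice and Anesthesia 1 and 4 were not. The means were 3537 ± 376 and 3131 ± 312. On the log2 scale the difference was 0.18 with a standard error of 0.091 and a 95% interval of -0.026 to 0.38, with an adjusted p of 0.652 in limma. After correction for GC content and length it was 0.15.

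Dlg1 (ENSMUSG00000022770, chr16:31663443-31875129, plus strand) encodes a MAGUK that takes part in the delivery of AMPA receptors. Normalized counts were 2848, 2483, 3816 and 2865 in Anesthesia 1 to 4 and 2600, 2810, 2519 and 2785 in Control 1 to 4. Anesthesia 3 was the highest and Anesthesia 2 the lowest of all 8 mice. The log2 fold change was 0.15 with a standard error of 0.11 and an adjusted p of 0.734 in limma, and without Anesthesia 3 it was 0.027.

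Dlg2 (ENSMUSG00000052572, chr7:90476672-92449247, plus strand) encodes a MAGUK that binds NMDA receptors and potassium channels. Normalized counts were 7409, 8054, 8073 and 8506 in Anesthesia 1 to 4 and 7648, 6949, 8041 and 7362 in Control 1 to 4. Anesthesia 1 lay below Control 1 and Control 3, so the groups overlapped. The groups differed by a log2 fold change of 0.095 with a standard error of 0.062 and an adjusted p of 0.697 in limma. A noncoding gene of the same strand with a mean of 1898 normalized counts shares 75 exonic bases with Dlg2.

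Dlg3 (ENSMUSG00000000881, chrX:100767722-100818410, plus strand) encodes a MAGUK that is prominent at young synapses and whose loss in people causes X-linked intellectual disability. Normalized counts were 3203, 3726, 3289 and 3182 in Anesthesia 1 to 4 and 3676, 3853, 3419 and 3476 in Control 1 to 4. Anesthesia 1, 3 and 4 were below all Control mice, and Anesthesia 2 was above 3 of them. The means were 3350 ± 255 and 3606 ± 198. The log2 fold change was -0.11 with a standard error of 0.067 and an adjusted p of 0.689 in limma. It was -0.15 after correction for GC content and length, with an unadjusted p of 0.0521.

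Summed over the 4 genes, the Dlg family had 16579, 17980, 19142 and 17901 normalized counts in Anesthesia 1 to 4 and 16733, 17109, 16924 and 16897 in Control 1 to 4. Anesthesia 2, 3 and 4 were above the Control mice and Anesthesia 1 was below them. Per kb, Dlg3 made up 24.6% ± 2.01 of the family in the Anesthesia mice and 27.8% ± 1.25 in the Control mice, with ranges of 22.5% to 27.1% and 26.6% to 29.0% that overlapped. Dlg4 made up 20.3% ± 1.07 and 18.9% ± 1.61. These shares were not tested.

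Dlgap1 and Homer1 join the layers, the first by binding the MAGUKs and the Shank proteins, the second by tying Shank to metabotropic glutamate receptors. Both were abundant, and their groups overlapped. Dlgap1 (ENSMUSG00000003279, chr17:69969073-70821413, plus strand) had 8322, 10286, 8513 and 8056 normalized counts in Anesthesia 1 to 4 and 8728, 8886, 7914 and 8316 in Control 1 to 4. Anesthesia 2 alone lay outside the Control range. Its log2 fold change was 0.050 with a standard error of 0.078 and an adjusted p of 0.867 in limma, and its 95% interval was -0.12 to 0.22. It was -0.027 without Anesthesia 2 and -0.024 after correction for GC content and length, so its sign was not settled.

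Homer1 (ENSMUSG00000007617, chr13:93299635-93405129, plus strand) had 4753, 5448, 5033 and 4854 normalized counts in Anesthesia 1 to 4 and 4750, 4825, 4697 and 5293 in Control 1 to 4. The groups overlapped over most of their range. Its log2 fold change was 0.038 with a standard error of 0.061, a 95% interval of -0.098 to 0.17 and an adjusted p of 0.875 in limma. Without Anesthesia 2 it was -0.0021. Homer1 makes a short form that neuronal activity induces as well as long forms, and a value per gene does not separate them.

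The Homer1 promoter is shown because the gene is known for induction by activity, which acts in part through cAMP response elements. The window holds the 250 bases before a start in RefSeq, at chr13:93303507-93303756 on the plus strand of GRCm38.p6, and capitals mark TGACG, the core of that element, which was searched on both strands.
Homer1: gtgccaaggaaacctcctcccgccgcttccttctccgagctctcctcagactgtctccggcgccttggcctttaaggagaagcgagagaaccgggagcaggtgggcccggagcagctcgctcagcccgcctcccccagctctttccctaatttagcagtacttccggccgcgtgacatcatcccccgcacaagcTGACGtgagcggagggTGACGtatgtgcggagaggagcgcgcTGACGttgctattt
The motif began 56, 40 and 14 bases before the start. The other Homer1 window, at chr13:93307784-93308033, held it 0 times. Of all 32851 RefSeq windows of this length, 17.8% held the motif and 0.688% held it 3 or more times. RefSeq windows were found for 7 of the 9 genes, 17 windows in all, of which 3 held TGACG. Immediate early genes, led by Arc and Nr4a3, gave 0 of 13 with an unadjusted p under 0.05, beside 8.02% of all genes tested. Their median log2 fold change was 0.054, and it was -0.027 after correction for GC content and length.

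Shank1 and Shank3 also stood out in base composition. Transcripts of Shank3 and Shank1 had a GC content of 62.4% and 61.4%, above that of 98.5% and 97.8% of the genes tested. Shank2 had 55.0% and Homer1 had 36.9%, with percentiles of 79.0 and 2.97. By transcript length, Shank1, Shank2 and Shank3 were at percentiles of 97.7, 96.8 and 93.6, and the other members at 81.4 to 94.8. Across all genes tested, the median log2 fold change was 0.061 in the highest decile by GC content and -0.0083 in the lowest. The difference between these deciles was 0.055 to 0.078 in the Anesthesia mice and -0.048 to 0.062 in the Control mice, on the log2 scale relative to the Control mean. The correction took the log2 fold changes of Shank1, Shank2 and Shank3 from 0.41, 0.42 and 0.40 to 0.18, 0.26 and 0.20. The median of the 9 genes was 0.15 before and after it, both times the value of Dlg1, which hardly moved. Before the correction 8 of the 9 were higher, and after it 7 were. Of all genes tested, 49.2% were higher before it and 46.1% after it. This correction takes GC content and length together, so their parts were not separated, and neither was tested beyond it.

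**Figure D4:**
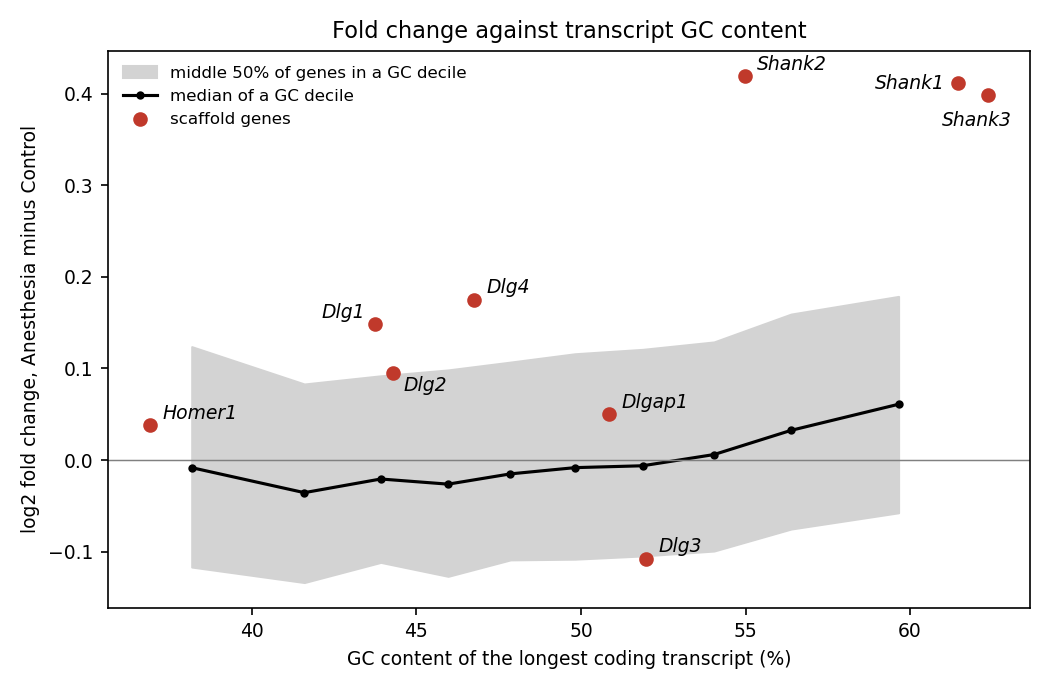
The log2 fold change of each scaffold gene (Anesthesia minus Control) against the GC content of its longest coding transcript in percent, with the median and the middle 50% of all genes tested in deciles by GC content. The 3 Shank genes lie at 0.40 to 0.42, above the shaded range, and the line rises to 0.061 in the highest decile.

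**Figure D5:**
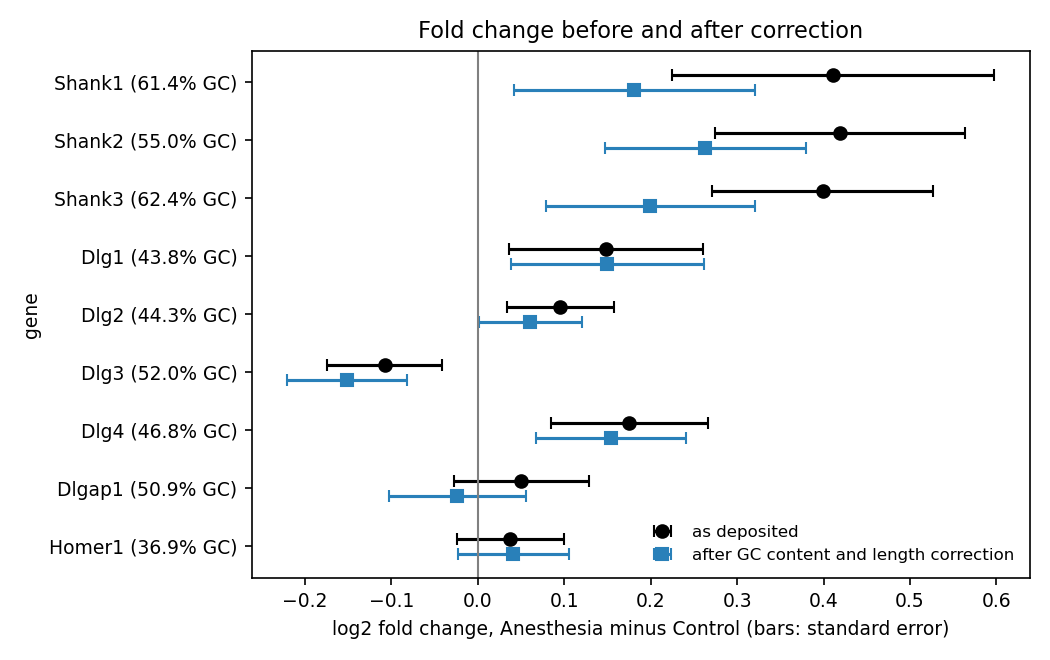
Log2 fold changes of the 9 genes with bars of 1 standard error, as deposited (circles) and after correction for GC content and transcript length (squares). Shank1, Shank2 and Shank3 move from 0.41, 0.42 and 0.40 to 0.18, 0.26 and 0.20, and Dlgap1 moves from 0.050 to -0.024.

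The genes also differed in how they varied between mice. Anesthesia 3 was the highest of the 8 mice for 5 of the 9 genes and had a median deviation of 0.35 from the Control mean on the log2 scale. Anesthesia 1, by contrast, had a median deviation of 0.0002, and Control medians lay between -0.083 and 0.097. Anesthesia 2 was highest for Dlgap1 and Homer1, and Control 3 was lowest for 3 genes. The SD over all 8 mice on the log2 scale was 0.38 for Shank1, 0.32 for Shank2 and 0.29 for Shank3, and between 0.079 and 0.19 for the other 6 genes.

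Profiles over the 8 mice were compared by the root mean square difference of centred log2 values. Shank1 and Shank2 were nearest to each other, at 0.178. Dlgap1 and Homer1 were also nearest to each other, at 0.0844, and Dlg1 was nearest to Dlg4, at 0.152. Shank3 was nearest to Dlg1 among the 9, at 0.218. Among the 12248 other genes with a mean of at least 100, those nearest to Shank3 were Med25 at 0.0859, Gm42969 at 0.0962, Zyx at 0.0965, Nav2 at 0.0983 and Cul9 at 0.104. Med25 encodes a subunit of the Mediator complex and Zyx encodes zyxin of focal adhesions. A near profile includes the difference between the groups and the high value of Anesthesia 3, and it is a description over 8 mice.

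The wider set of genes around these scaffolds held 70 genes in 6 lists, all of which were tested. Of these, 46 were higher in the Anesthesia group and 0 had an adjusted p under 0.05, with a median log2 fold change of 0.036. At an unadjusted p under 0.05, 9 were higher and 1 was lower, beside 4.75% and 3.27% of all genes tested. The Anesthesia group lay wholly higher for 1 of 5 other Dlgap and Homer genes and 1 of 22 partners of PSD-95 and the Dlgap proteins. It also did so for 1 of 13 other PDZ and MAGUK scaffolds, and for 0 genes of the other lists. In every list 0 lay wholly lower. Of all genes tested, 2.81% lay wholly higher and 2.23% wholly lower. After the correction for GC content and length 30 of the 70 were higher, and their median turned to -0.022. Of all genes tested 46.1% were then higher, with a median of -0.014. After this correction 5 of the 70 had an unadjusted p under 0.05, as did 6.39% of all genes tested. The 5 were Dlgap2, Adgrl1, Grip2, Wasf1 and Iqsec2. Iqsec2, a guanine nucleotide exchange factor of the density, was lower and is named after its values were seen. Adjusted p-values in limma of the 10 named next were between 0.568 and 0.622.

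Closest in kind were the other Dlgap and Homer genes, of which 4 of 5 were higher and 2 had an unadjusted p under 0.05. Dlgap2, a scaffold of the same family as Dlgap1, had means of 1109 ± 141 and 877 ± 101 normalized counts in the Anesthesia and Control groups, a log2 fold change of 0.34. Dlgap3, a family member best known in the striatum, had 1617 ± 285 and 1295 ± 78.8, a log2 fold change of 0.31, and its groups did not overlap. The corrected log2 fold changes were 0.26 for Dlgap2 and 0.14 for Dlgap3, whose groups then overlapped. The median of this list was 0.19 before the correction and 0.061 after it.

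Among partners of the Shank proteins, 7 of 12 were higher and 2 had an unadjusted p under 0.05, with a list median of 0.016. After correction 3 of 12 were higher and the median was -0.073, so its sign turned. Adgrl1, a latrophilin adhesion receptor, had 7791 ± 1205 and 5968 ± 602 normalized counts, a log2 fold change of 0.38 that was 0.20 after correction. Lzts3, a spine scaffold that binds Shank, had 2024 ± 93.6 and 1780 ± 141, with a log2 fold change of 0.19 that was 0.079 after correction. Among partners of PSD-95 and the Dlgap proteins, 15 of 22 were higher and 2 had an unadjusted p under 0.05, with a list median of 0.063. Here too the sign turned, with 9 of 22 higher and a median of -0.022 after correction. Sipa1l1, a GTPase-activating protein for Rap in spines, had 5570 ± 554 and 4642 ± 108 normalized counts. Its log2 fold change was 0.26 and its groups did not overlap. After correction its log2 fold change was 0.14 and the groups overlapped. Agap2, a GTPase-activating protein that associates with the density, had 7749 ± 867 and 6833 ± 221, and its log2 fold change of 0.18 was -0.012 after correction.

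Of the 13 other PDZ and MAGUK scaffolds, 10 were higher and 2 had an unadjusted p under 0.05, with a list median of 0.041. After correction 8 of 13 were higher and the median was 0.034. Grip2, which binds AMPA receptors, had 128 ± 26.0 and 85.8 ± 8.87 normalized counts, a log2 fold change of 0.56, and its groups did not overlap. After correction its log2 fold change was 0.43 and the groups overlapped. Mpp2, a MAGUK that associates with PSD-95, had 1105 ± 90.1 and 967 ± 60.2, a log2 fold change of 0.19 that was 0.11 after correction. Of 11 spine actin genes, 7 were higher, with 1 higher and 1 lower at an unadjusted p under 0.05 and a median of 0.021. After correction 5 of 11 were higher and the median was -0.023, a change of sign that was smaller than the spread between mice. Synpo, the synaptopodin of the spine apparatus, had 1042 ± 205 and 838 ± 51.3 normalized counts, a log2 fold change of 0.30 that was 0.17 after correction. Wasf1, an activator of actin branching, had 1263 ± 108 and 1451 ± 64.5, a log2 fold change of -0.20 that was -0.19 after correction. Of the 7 palmitoylation and depalmitoylation genes, 3 were higher and 0 had an unadjusted p under 0.05, with a median of -0.059, and after correction 1 was higher, with a median of -0.064.

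Lists of other cells and RNA classes were set beside these values, and no marker found was at 0 in all mice. Every gene of these lists was found except 1 of 8 for thalamus and 1 of 8 for nuclear-retained RNA. Their median log2 fold changes were -0.060 for principal neurons, -0.019 for GABAergic interneurons, -0.099 for astrocytes, -0.056 for oligodendrocytes, 0.034 for microglia, -0.030 for endothelium and 0.014 for thalamus. Of the 12 choroid plexus genes 0 were higher in Anesthesia mice. Their median was -1.64, and the groups overlapped. With its level as a covariate, the log2 fold changes of Shank1, Shank2 and Shank3 were 0.35, 0.34 and 0.33. Anesthesia 3, the highest mouse for the Shank genes, deviated from the Control mean by -0.45 for principal neurons and 0.50 for immediate early genes. The summed levels of these lists overlapped between the groups, with 20071 to 38862 normalized counts of principal neuron markers in Anesthesia mice against 25226 to 33479, and 3776 to 5456 of immediate early genes against 3885 to 5603. Their part in the Shank values was not tested.

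RNAs that stay in the nucleus, led by Malat1 and Meg3, moved with the groups as a list. Their summed level was 354845 to 404985 normalized counts in the Anesthesia mice and 328599 to 352357 in the Control mice, so these sums did not overlap, and 6 of 7 genes were higher with a median log2 fold change of 0.21. Their deviations were 0.12, 0.053, 0.31 and 0.23 in Anesthesia 1 to 4 and -0.015 to 0.0094 in the Control group. With their level as a covariate, the log2 fold changes of Shank1, Shank2, Shank3 and Dlg1 were -0.043, -0.0060, 0.14 and -0.22. Since the sums do not overlap, this covariate and the groups cannot be told apart. Gene by gene, 3 of the 7 were higher and 0 lower at an unadjusted p under 0.05 in limma. Of all genes tested, 4.75% were called higher and 3.27% lower. The groups lay apart for 1 of the 7, beside 2.81% of all genes tested that lay wholly higher. The groups overlapped for both Malat1 and Meg3, whose unadjusted p-values in limma were 0.0496 and 0.0156.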

How the data were processed

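Hippocampal RNA-sequencing values of 8 mice were analysed, each column matched to its mouse by group letter and number. The deposited values are a normalized signal: the authors ran Salmon v1.1.0 on GRCm38 with GC bias correction, took gene-level values with tximport and applied DESeq2 v1.30.1 in R v3.5.3. A stranded total RNA kit is named in the methods, and another TruSeq kit in the labels. Since 52.8% to 71.8% of a library's low values came within 0.1 of whole reads, read counts could not be rebuilt and count models were not used. Limma (version 3.58.1, R version 4.3.3) modelled log2(value + 1), with its trend option, for genes averaging at least 10, which left out 1937 genes. Benjamini-Hochberg adjustment ran over all genes tested, with a threshold of 0.05. Fold changes on this scale are understated for low genes. P-values set the difference between the groups against the spread between these mice.

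No pairing of the mice by replicate number was detected, which does not exclude one. GC content and length came from the longest coding transcript in GENCODE M21, which held 20784 of the identifiers, and each library was corrected by loess with a span of 0.3. Promoters were taken from RefSeq. The 9 genes and all lists were chosen with earlier results of these data known, and the partner genes named are those with an unadjusted p under 0.05. Alternatives were other scalings, filters, a pseudocount of 0.1, voom, the replicate block, the GC and length correction with and without it, a choroid plexus covariate and leaving out each mouse; a nuclear-retained RNA covariate was added after seeing the data. Scripts were tested on simulated data. Log2 ratios between libraries had an SD of 0.45 to 0.672, so none was a repeat of another.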

Additional observations from a re-analysis of the deposited data

Results flagged for a closer look

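Within groups of 4 mice, the highest or lowest value was set against the others for the 9 genes, the 10 partner genes named and the mean deviation of 17 lists (the 9 genes themselves, 6 partner and 10 marker lists), 72 groups in all. The gap to the nearest mouse, as a share of the group's range, passed Dixon's 95% limit in 3 groups, and chance gives about 3.6. Shank1 in Anesthesia 3 was 2209 normalized counts, while the other Anesthesia mice were between 1265 and 1339. The mean deviation of the spine actin genes from the Control mean in Anesthesia 2 was 0.16 on the log2 scale, while the other Anesthesia mice were between -0.012 and 0.016. The microglia markers in Control 4 deviated by 0.16, while the other Control mice were between -0.064 and -0.039.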

How the results depend on the processing

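Of 180 log2 fold changes of the 9 genes over 20 alternatives, 173 kept their direction and 7 reversed. No member had an adjusted p under 0.05 in any alternative. The correction for GC content and length gave 1 member with an unadjusted p under 0.05 instead of 2, 0 instead of 1 whose groups did not overlap, 5 partner genes instead of 10 and a Dlgap1 log2 fold change of -0.024, with 1205 of all 18865 genes under that p instead of 1513. With the replicate block added it gave 1, 0, 3 and -0.024, with 871 of all genes. The 1 member was Shank2 without the block, and with it was Dlg3, which was lower. The block alone gave 2 members and 8 partner genes, with 1084 of all genes, and changed no other call. A pairing by number was not detected over all genes tested, and it is not excluded. Correlations of same-numbered mice were -0.242, -0.109, -0.182 and 0.019, and 0 Anesthesia mice were closest to the Control mouse of their number. The choroid plexus covariate gave 1 member and 5 partner genes, and 863 of all genes. The nuclear-retained RNA covariate, added after seeing the data, gave 0 members with an unadjusted p under 0.05. It gave 11 partner genes, with 1265 of all genes. Members higher were 5 instead of 8, while 50.8% of all genes were higher. Log2 fold changes were -0.043 for Shank1, -0.0060 for Shank2 and -0.22 for Dlg1. The causes were not tested.

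Leaving out each mouse gave 0 to 2 genes past the adjusted threshold, 2 to 4 members with an unadjusted p under 0.05, 1 to 3 whose groups did not overlap and 5 to 16 partner genes. Over all genes tested in the same fits, 5.64% to 10.7% had such a p, highest without Anesthesia 1, and 7.02% to 11.5% had groups that did not overlap, against 8.02% and 5.04% with all 8 mice. The 2 genes, mt-Nd4l and Gm10222, were called without Control 1 and are named after their values were seen. There were 4 members without Anesthesia 1, Anesthesia 2 or Control 2, 3 not overlapping without Anesthesia 1 or 2 and 2 without Control 2, 16 partner genes without Anesthesia 2 and 5 without Control 4. Log2 fold changes were -0.027 to 0.090 for Dlgap1 and -0.0021 to 0.076 for Homer1, and both were below 0 without Anesthesia 2. With 4 mice per group, the standard errors of 0.061 to 0.19 limit what could be detected.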
